A study of Mus musculus with 37 samples.

Results

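VIP was given for 72 h to jejunal organoids, and Lgr5-EGFP+ progenitor cells were then sorted and compared with cells sorted from untreated organoids of the same mice. The experiment is defined by its samples, 8 of the 37 libraries of the series: 4 control and 4 VIP-treated samples, 1 of each from 4 mice. The organoids came from adult Lgr5-EGFP-IRES-CreERT2 mice of 6 to 12 weeks, were allowed to establish, and received 100 nM VIP or no VIP, without irradiation. In this knock-in allele EGFP is driven from the Lgr5 locus in a mosaic manner, so that the gate holds Lgr5-expressing cells and their recent progeny and leaves out Lgr5+ cells in which the allele is silent. Both groups carried this allele, and the treatment was the labelled difference between them. A pair of other experiments served for comparison, with other mice in each: unirradiated Lgr5-EGFP+ cells with or without VIP for 48 h (4 mice, 8 samples), and whole organoids with or without VIP for 72 h (4 treated and 3 untreated samples), described as derived from C57Bl/6 mice. In these organoids 1 treated culture had no untreated culture of its mouse and added nothing to the within-mouse difference.

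VIP is a peptide released by enteric neurons. It binds the G protein-coupled receptors VPAC1 (Vipr1) and VPAC2 (Vipr2), which raise cAMP and activate protein kinase A, and in the intestine it is best known for driving epithelial chloride and water secretion. Lgr5+ cells at the crypt base divide and give rise to absorptive enterocytes and to the secretory goblet, Paneth, enteroendocrine and tuft cells, under control of Wnt and Notch signals. Paneth cells secrete alpha-defensins, lysozyme and lectins of the Reg family, and goblet cells secrete the mucin MUC2 together with the mucus proteins FCGBP, TFF3 and ZG16.

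The 8 samples held 575242 to 1104126 unique molecular identifiers (UMIs), each standing for 1 captured transcript. The detection floor was taken as 3 UMIs and corresponded to 2.8 to 5.6 CPM. CPM are counts scaled to the summed UMIs of the genes tested in that experiment, after TMM correction. VIP-treated mouse 1 (1104126) and control mouse 2 (864670) were sequenced more deeply than the others, which held at most 631341. Mitochondrially encoded transcripts made up 5.90% to 9.39% of the UMIs. Epcam, which marks epithelium, lay between 792 and 1117 CPM and the stem cell gene Olfm4 between 3625 and 6031 CPM, whereas the summed markers of cells outside the epithelium made up at most 0.00340% of a library, and Ptprc, Col1a1 and Col3a1 had no UMI in the 72 h table. Lgr5 itself had 8 to 45 UMIs per sample, and its median in the controls was 40.4 CPM, beside 85.6 CPM in untreated whole organoids. The median of Lgr5, the gene of the sort, was thus lower in the sorted controls than in the unsorted culture. Their ranges overlapped (14.7 to 50.3 and 45.2 to 100 CPM). The stem cell gene Smoc2 (245 and 253 CPM) and the Paneth cell defensin Defa24 (5451 and 6620 CPM) differed less from the unsorted culture. Olfm4 (4344 and 1606 CPM) and Ascl2 (221 and 159 CPM) were higher in the sorted controls, and the enterocyte gene Fabp1 (153 and 8235 CPM) was lower. The sorted cells also held secretory transcripts: Paneth alpha-defensins took 0.376% to 1.26% of the UMIs of the controls and 0.324% to 1.04% with VIP, and goblet cell products 0.572% to 0.940% and 0.492% to 0.759%. In such bulk samples a change in the share of cells of a type and a change of RNA per cell cannot be told apart. Of the receptors, Vipr1 had 4 to 16 UMIs per sample and Vipr2 at most 1, too few for a test. Xist was at 45 and 58 UMIs in the samples of mouse 4 and at 0 to 3 in those of the other mice, in both treatments, so that the samples of mouse 4 stood apart together. The Y-linked Eif2s3y was lowest in mouse 4, at 4 UMIs in the control and 6 with VIP, and reached 49 and 48 in other mice. Mouse 4 thus had the transcripts of a female line, and sex cannot be told apart from other traits of this mouse.

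Few genes passed the threshold. With edgeR's quasi-likelihood test, the mouse as a block and Benjamini-Hochberg adjustment over 6778 genes, 6 genes (0.0885%) had an adjusted p of 0.05 or less, 4 higher (0.0590%) and 2 lower (0.0295%) with VIP. S100a6, Defa3, Reg1 and Defa38 rose, and Fcgbp and Plgrkt fell. Without the mouse as a block only S100a6 passed, and DESeq2's Wald test called S100a6 and Defa3. At an unadjusted p under 0.05, 2.95% of the genes were higher and 2.55% lower. In every one of the 4 mice 7.26% of the genes were higher and 6.40% lower, and the groups did not overlap for 1.43% of the genes in the higher and 1.20% in the lower direction.

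**Figure D1:**
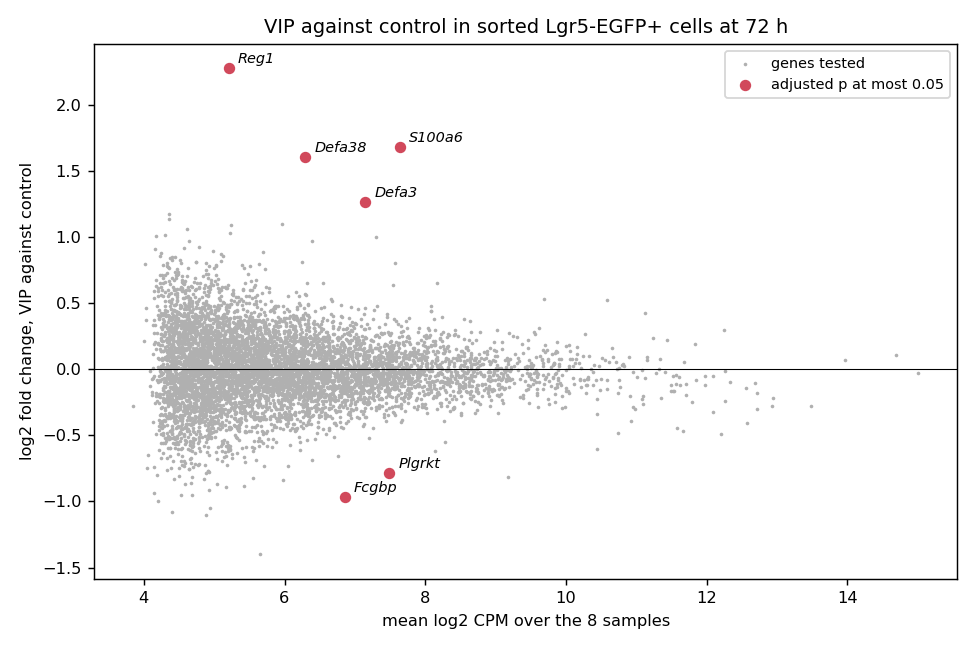
Log2 fold change of each of the 6778 tested genes against its mean log2 CPM, with the 6 genes past the threshold in red. Reg1, S100a6, Defa38 and Defa3 lie above 1, and Plgrkt and Fcgbp lie between -1 and 0.

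S100a6 encodes calcyclin, a small calcium-binding protein that is raised in regenerating and fetal-type intestinal epithelium. It lies on chromosome 3 from 90612882 to 90624181 (plus strand, GRCm38). In control mice 1 to 4 it was at 88.9, 103.8, 101.0 and 70.1 CPM, and with VIP at 411.1, 308.5, 230.5 and 232.6 CPM. Each VIP-treated sample was above each control. VIP raised it by 1.68 on the log2 scale (SE 0.16, adjusted p = 1.40e-07 from edgeR, higher in 4 of 4 mice), and S100a6 passed the threshold in all 12 alternative settings, with a log2 fold change of 1.49 to 1.84.

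Reg1, a C-type lectin with growth-promoting activity that is secreted after injury, lies on chromosome 6 from 78422711 to 78428667 (plus strand). Its controls were at 5.0, 6.1, 9.2 and 22.2 CPM and the VIP-treated samples at 17.8, 18.8, 23.9 and 176.1 CPM. Mouse 4 was the highest in both groups, and the groups overlapped although each mouse rose. Its increase was 2.28 in log2 units (SE 0.34, adjusted p = 5.00e-04 from edgeR, higher in 4 of 4 mice). It rested on few molecules, 3 to 13 UMIs in the controls, and on mouse 4: without this mouse it was 1.56 and did not pass.

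Defa3 and Defa38 encode alpha-defensins (cryptdins), the antimicrobial peptides of Paneth cell granules, and lie in the defensin cluster of chromosome 8, Defa3 from 21287409 to 21288377 and Defa38 from 21095074 to 21096050. Defa3 was at 115.7, 87.9, 99.1 and 22.2 CPM in controls and at 258.8, 208.8, 223.7 and 75.9 CPM with VIP, 1.27 higher on the log2 scale (SE 0.16, adjusted p = 4.42e-05, higher in 4 of 4 mice) in groups that overlapped. Defa38 was at 36.9, 28.1, 42.2 and 18.8 CPM in controls and at 255.1, 92.2, 70.0 and 14.5 CPM with VIP, 1.61 higher on the log2 scale (SE 0.29, adjusted p = 0.00511, higher in 3 of 4 mice). Both were lowest in mouse 4, where Defa38 did not rise, and Defa38 did not pass without mouse 1. The pair cannot be counted as independent genes: 90.9% of the 60-base windows in the last 400 bases of the Defa3 transcript, which these 3′ libraries read, occurred in transcripts of 10 other genes, Defa38 and Defa29 among them, and 43.8% of those of Defa38 occurred in other genes. For S100a6, Reg1 and Plgrkt no such window was shared, and for Fcgbp 26.4% occurred in 1 other gene.

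Fcgbp, a large mucus protein of goblet cells that binds the Fc part of IgG, lies on chromosome 7 from 28071236 to 28120862 (plus strand). It was at 109.0, 211.2, 99.1 and 179.6 CPM in controls and at 58.9, 86.5, 58.1 and 98.5 CPM with VIP. All VIP-treated samples were below all controls, the nearest by less than 1 CPM, and the log2 difference amounted to -0.97 (SE 0.17, adjusted p = 0.00511, lower in 4 of 4 mice). It did not pass without mouse 1 or without mouse 2.

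Plgrkt, a membrane receptor that binds plasminogen and favours its activation at the cell surface, lies on chromosome 19 from 29348599 to 29367390 (minus strand). It was at 201.3, 207.6, 231.3 and 260.0 CPM in controls and at 125.2, 150.5, 124.6 and 119.5 CPM with VIP, again without overlap. The log2 difference amounted to -0.78 (SE 0.15, adjusted p = 0.0151, lower in 4 of 4 mice). It did not pass without mouse 1 or without mouse 4.

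**Figure D2:**
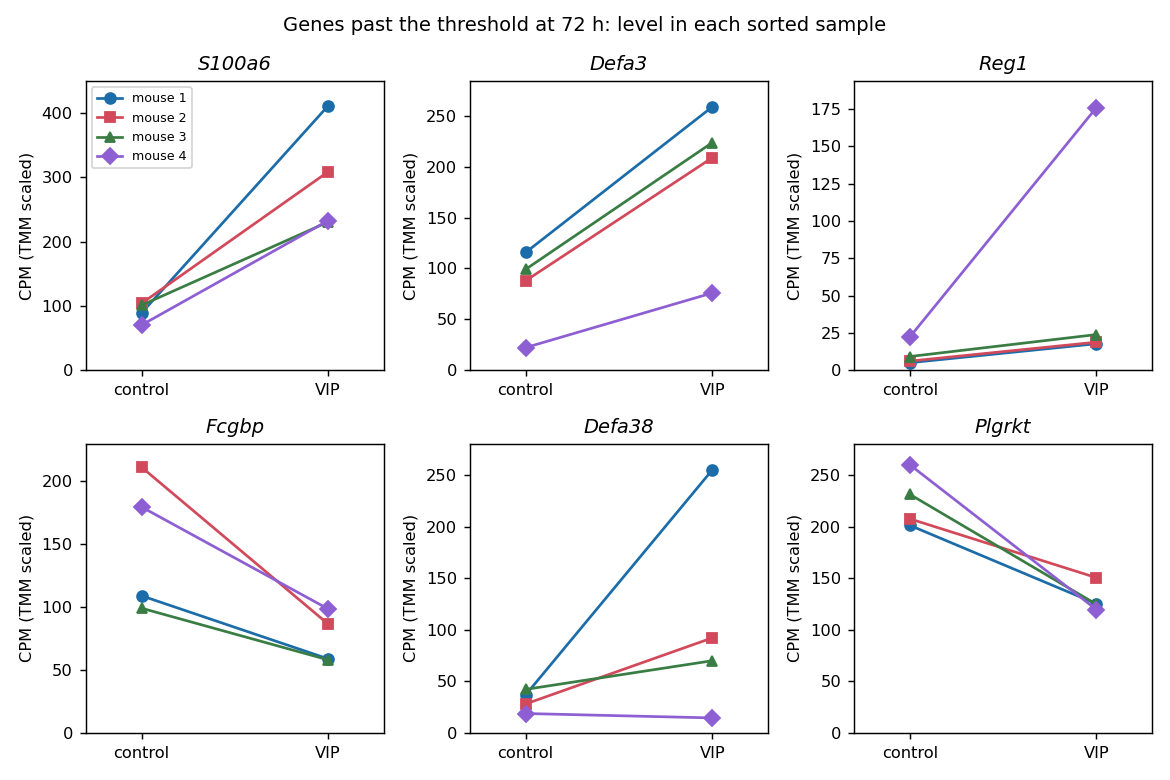
CPM after TMM scaling of the 6 genes past the threshold in each control and VIP-treated sample, with the samples of a mouse joined by a line. S100a6 rises from 70.1 to 103.8 CPM in controls to 230.5 to 411.1 CPM with VIP, Plgrkt falls in each mouse, and the rise of Reg1 is largest in mouse 4 while Defa38 does not rise there.

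Since VIP signals through cAMP, the 250 bases before the annotated start of the genes past the threshold were searched for the cAMP response element TGACGTCA, its core TGACG, and the AP-1 site TGACTCA, on both strands. The full element contains the core. The sequences of the called genes with the fewest shared 3′ windows are given here from RefSeq on GRCm38.p6, 5′ to 3′ on the gene's strand, with matches in capitals, so that the presence or absence of these letters can be read directly.
S100a6, chr3:90612644-90612893, plus strand: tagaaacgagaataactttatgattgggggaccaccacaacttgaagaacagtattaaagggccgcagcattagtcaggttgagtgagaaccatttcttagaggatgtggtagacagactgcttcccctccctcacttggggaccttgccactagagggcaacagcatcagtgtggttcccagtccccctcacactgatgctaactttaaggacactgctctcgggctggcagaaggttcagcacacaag
Reg1, chr6:78425733-78425982, plus strand: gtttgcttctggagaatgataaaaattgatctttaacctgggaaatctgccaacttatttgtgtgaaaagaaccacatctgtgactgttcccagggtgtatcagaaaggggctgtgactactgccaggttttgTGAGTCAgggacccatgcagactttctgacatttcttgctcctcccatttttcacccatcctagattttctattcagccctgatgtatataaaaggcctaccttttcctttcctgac
Fcgbp, chr7:28070986-28071235, plus strand: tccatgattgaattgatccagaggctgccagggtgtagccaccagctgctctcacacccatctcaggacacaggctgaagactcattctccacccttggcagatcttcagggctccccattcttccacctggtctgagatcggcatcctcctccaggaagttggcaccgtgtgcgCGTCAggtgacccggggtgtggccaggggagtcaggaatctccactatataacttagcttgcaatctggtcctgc
Plgrkt, chr19:29361872-29362121, minus strand: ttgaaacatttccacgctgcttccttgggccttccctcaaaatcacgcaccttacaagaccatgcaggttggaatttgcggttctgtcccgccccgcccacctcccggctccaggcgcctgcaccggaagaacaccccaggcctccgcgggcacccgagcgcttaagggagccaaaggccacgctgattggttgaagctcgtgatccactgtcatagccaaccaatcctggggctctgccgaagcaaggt
The RefSeq starts of S100a6, Reg1 and Plgrkt lie inside the spans that GENCODE gives these genes, and that of Fcgbp is the first base of its span. Fcgbp held a core starting 75 bases before the start, read here as its reverse complement, and Reg1 an AP-1 site at 117 bases. S100a6, Plgrkt and Defa38 held none of the 3 motifs, and Defa3 was not matched. Of the 21 genes of this and the next paragraphs, 17 had a promoter in the table, and Chgb was the 1 with a full element, 72 bases before its start. Besides Fcgbp, the core occurred in Cck, Haus7, Chgb, Itsn2 and Rpp38, and besides Reg1 the AP-1 site occurred in S100a11. Over all 32851 promoters of the same length, 1.55% held the full element, 17.8% the core and 4.46% the AP-1 site, and over the 6681 promoters of genes tested at 72 h the shares were 2.77%, 29.2% and 3.01%. A match describes the letters and not a binding site.

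Below the threshold, the genes with the smallest p among those higher in 4 of 4 mice were, after S100a6, Defa3 and Reg1, Acta1, Reg4, Cck, S100a11, Pglyrp1, Defa21 and Cbs. None of these 7 passed (adjusted p from 0.0508 to 0.171). Reg4, a lectin of secretory cells, was at 123 to 294 CPM in controls and 178 to 461 with VIP (log2 fold change 0.65, adjusted p = 0.0739). Cck, the hormone cholecystokinin of enteroendocrine I cells, had a log2 fold change of 0.81 (adjusted p = 0.0739). S100a11, a partner of annexins, was at 129 to 165 CPM in controls and 208 to 237 with VIP, without overlap (0.64, adjusted p = 0.0812). Pglyrp1, a bactericidal peptidoglycan recognition protein, also did not overlap, at 569 to 768 and 922 to 1066 CPM (0.53, adjusted p = 0.125). Cbs, which makes cystathionine from homocysteine, had a log2 fold change of 1.09 (adjusted p = 0.171) and the skeletal muscle actin Acta1 one of 0.97 (adjusted p = 0.0508).

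The genes with the smallest p among those lower in 4 of 4 mice were, after Fcgbp and Plgrkt, Eif4ebp1, Rn7sk, Tff3, Haus7, Jun, Chgb, Itsn2 and Rpp38, with adjusted p from 0.0749 to 0.352. Eif4ebp1, the translation repressor 4E-BP1 and a target of mTOR, was at 259 to 405 CPM in controls and 186 to 258 with VIP, without overlap (log2 fold change -0.62, adjusted p = 0.0749). Tff3, the trefoil peptide that goblet cells secrete with mucin, was at 1309 to 2019 and 777 to 1332 CPM (-0.60, adjusted p = 0.101). Jun, an AP-1 subunit, had a highest value of 215 CPM in controls and 131 CPM with VIP (-0.65, adjusted p = 0.206), and Chgb, a granin of enteroendocrine granules, was at 195 to 562 and 95.3 to 400 CPM (-0.55, adjusted p = 0.227). For Tff3, Jun and Chgb the groups overlapped although each mouse was lower. Rn7sk, a non-coding RNA, varied from 200.3 to 1382 CPM and was high in both samples of mouse 2.

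Alpha-defensins did not move as 1 group. Of 30 genes listed, 19 had a UMI and 9 could be tested, 6 above and 3 below a log2 fold change of 0, with a median of 0.28 against -0.0015 over all tested genes. Besides Defa3 and Defa38, Defa21 had 1.10 (adjusted p = 0.168) and Defa22 0.81 (adjusted p = 0.279), and these share 64.8% and 64.5% of their 3′ windows with each other. The abundant Defa24 had -0.49 (adjusted p = 0.624), from 2532 to 8933 CPM in controls to 1948 to 5696 with VIP, lower in 4 of 4 mice, and Defa26 had -0.66 (adjusted p = 0.884). Defa17, Defa30 and Defa39 had -0.22, 0.28 and 0.21. The median over the list was 0.80 in mouse 1 and -0.16 in mouse 4, and without mouse 1 the fitted median was 0.09. Defa29, too low for the test, had 2, 5, 0 and 5 UMIs in controls 1 to 4 and 38, 24, 25 and 4 with VIP. It is named here after its values were seen.

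Of the Paneth cell products outside the defensins 7 of 12 tested members were above 0, with a median of 0.01. The mice differed, with medians of 0.42, -0.41, -0.13 and 0.13 in mice 1 to 4, and the fitted median was -0.10 without mouse 1 and 0.15 without mouse 2. Lyz1, lysozyme, was at 616 to 1628 CPM in controls and 449 to 1334 with VIP (log2 fold change -0.10, adjusted p = 0.967). Mmp7, the protease that activates mouse alpha-defensins, had 0.01, Ang4 0.37 and Itln1 -0.29, and none passed. Of 7 Reg lectins listed 5 had a UMI. All 5 Reg genes tested had a log2 fold change above 0 (Reg1, then Reg3a 0.82, Reg3b 0.80, Reg4 0.65 and Reg3g 0.21), with a median of 0.80, against 49.7% of all genes above 0, but only Reg1 passed. Reg genes together made up 0.0300% to 0.0363% of the UMIs in controls and 0.0534% to 0.0656% with VIP, without overlap. Among single genes 1.43% were higher without overlap. Reg4 was the largest part of this sum, at a median of 233 CPM in controls and 376 with VIP, and its own groups overlapped. Reg3a and Reg3b were higher in 3 of 4 mice and Reg3g in 2 of 4.

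Goblet cell products were mostly on the lower side. Of 38 genes listed, 24 were tested, 19 below and 5 above 0, and the median log2 fold change was -0.20. Fcgbp was the 1 member past the threshold. Tff3, Spink4, Ccl6, Guca2a and Zg16 were also lower in 4 of 4 mice, so that 6 of 24 members were lower in every mouse where 6.40% of all genes were. Their log2 fold changes were -0.60, -0.46, -0.77, -0.33 and -0.61, with adjusted p from 0.101 to 0.884. Muc2, the gel-forming mucin, had only 7 to 29 UMIs per sample and differed by -0.49 on the log2 scale (SE 0.32, adjusted p = 0.919), and Agr2, a disulfide isomerase needed for mucin folding, had -0.15. The median over the list was -0.34, -0.26 and -0.16 in mice 2 to 4 and 0.02 in mouse 1. The fitted median was -0.34 without mouse 1 and -0.15 without mouse 3. Clca1, a goblet cell metalloprotease, had at most 5 UMIs in a sample and could not be tested.

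**Figure D3:**
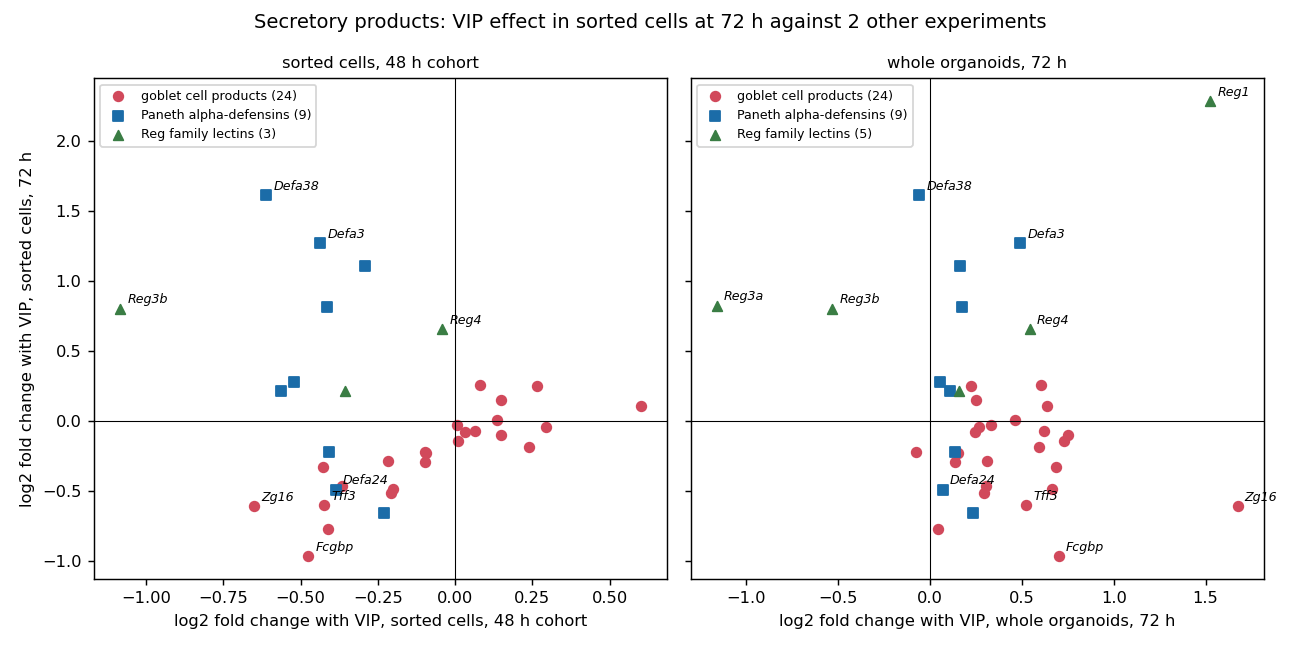
Log2 fold change with VIP of goblet cell products, Paneth alpha-defensins and Reg lectins in sorted cells at 72 h (vertical axis) against that in sorted cells of the 48 h cohort (left) and in whole organoids (right), 1 point per gene tested in both. Goblet cell products lie on both sides of 0 in the 48 h cohort, while Fcgbp, Tff3 and Zg16 lie below 0 in both sorted experiments and above 0 in whole organoids, and Defa3 and Defa38 lie above 0 at 72 h and below 0 in the 48 h cohort.

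Genes of the stem cell and of the Wnt pathway lay above 0 more often than not. No member passed edgeR's threshold or that of DESeq2, and 4 stem cell and 3 Wnt genes were higher at an unadjusted p under 0.05, beside the 2.95% of all genes. Of 28 tested stem cell genes 24 were above 0 (median 0.19), and of 22 Wnt targets 20 (median 0.20). The lists share members, and without mouse 3 the medians were 0.09 and 0.10, while in mouse 2 they were -0.03 and -0.03. Cd44, a Wnt target and adhesion receptor, was at 37.6 to 79.4 CPM in controls and 82.8 to 105 with VIP (log2 fold change 0.65, adjusted p = 0.624, higher in 4 of 4 mice), and Olfm4 at 3625 to 5223 and 4718 to 6031 CPM (0.30, adjusted p = 0.884). Lgr5 was at 14.7 to 50.3 and 39.5 to 56.3 CPM, 0.38 higher on the log2 scale (SE 0.27, adjusted p = 0.934) with 2 of 4 mice higher. Ccnd1, cyclin D1, had 0.38 and Ascl2, a transcription factor of stem cell identity, 0.20. Notch pathway genes were split, 4 above and 5 below 0.

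Genes of apical junctions and adhesion were above 0 in 41 of 52 cases (median 0.17), 11 of them higher in every mouse, and again none passed. The cytoskeletal actin Actb had a log2 fold change of 0.43 (adjusted p = 0.624) and Jup, plakoglobin, 0.57 (adjusted p = 0.868). Cldn2, the pore-forming claudin of crypts, had 0.34 (adjusted p = 0.884). The median over the list ran from 0.12 without mouse 3 to 0.27 without mouse 2. Of the genes of fetal-like regenerative epithelium, 17 of 46 could be tested and 14 were above 0 (median 0.22). S100a6 was the 1 that passed, and S100a11, Cd44, Ly6e and Tm4sf4 followed at 0.64, 0.65, 0.50 and 0.49. Anxa2, Krt7 and Lgals3 had 0.25, 0.18 and 0.33. S100 proteins and annexins were not uniformly higher: Anxa13 had -0.45 (adjusted p = 0.884), and S100a10 0.14.

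Genes for folding and secretion in the endoplasmic reticulum lay on the lower side in 35 of 44 cases, with a small median of -0.14, between -0.13 and -0.06 in the single mice. Herpud1, a component of ER-associated degradation, had a log2 fold change of -0.46 and Dnajb11, a chaperone partner, -0.31, and no gene passed. Nuclear genes of the respiratory chain were below 0 in 59 of 76 cases (median -0.08), but the median was -0.44 in mouse 3 and 0.11 in mouse 2, and it was 0.01 without mouse 3. Mitotic (G2/M) genes were above 0 in 40 of 60 cases, among them Nek2 at 0.87 (adjusted p = 0.624). Their median was 0.07, from 0.05 without mouse 4 to 0.14 without mouse 2. Replication genes were above 0 in 37 of 57 cases (median 0.10, and 0.02 without mouse 3).

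Genes of the cAMP pathway itself gave no direction. Of 47 listed genes 17 could be tested, 9 above and 8 below 0, with a median of 0.01. Prkar1a, a regulatory subunit of protein kinase A, had a log2 fold change of 0.20 and Creb3, a membrane-bound transcription factor, -0.54 (adjusted p = 0.884). Of 13 immediate early and CREB target genes 5 were above 0, and Fos had 0.10. Among genes of chloride and fluid secretion 13 of 20 were above 0. Their median was 0.14, from 0.09 without mouse 3 to 0.26 without mouse 2. Kcnq1, a basolateral potassium channel, had 0.54 and the water channel Aqp1 0.38, neither past the threshold. Enterocyte genes were divided, 14 above and 12 below 0. The mice were divided as well, with medians over the list of 0.21, -0.73, 0.66 and -0.10 in mice 1 to 4. The carboxylesterase Ces2a had -1.40 (adjusted p = 0.125) and was lower in 3 of 4 mice. Of the enteroendocrine genes 8 of 12 were below 0 (median -0.18), which rested on mouse 3: without it 7 of 10 were above 0 (median 0.14). No tuft cell gene had enough UMIs for the test, Dclk1 at most 6 in a sample, and Neurod1, an enteroendocrine factor, at most 11. NF-kB, interferon, p53, ribosomal protein and heat shock genes (10, 16, 16, 76 and 19 tested) had medians between -0.10 and 0.02. For ribosomal protein genes the mice differed, with medians of 0.33, 0.07, -0.42 and -0.16 in mice 1 to 4. No member of these lists passed in edgeR or DESeq2. At an unadjusted p under 0.05 in edgeR 2 of all these members were higher and 5 lower, beside 2.95% and 2.55% of all tested genes.

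**Figure D4:**
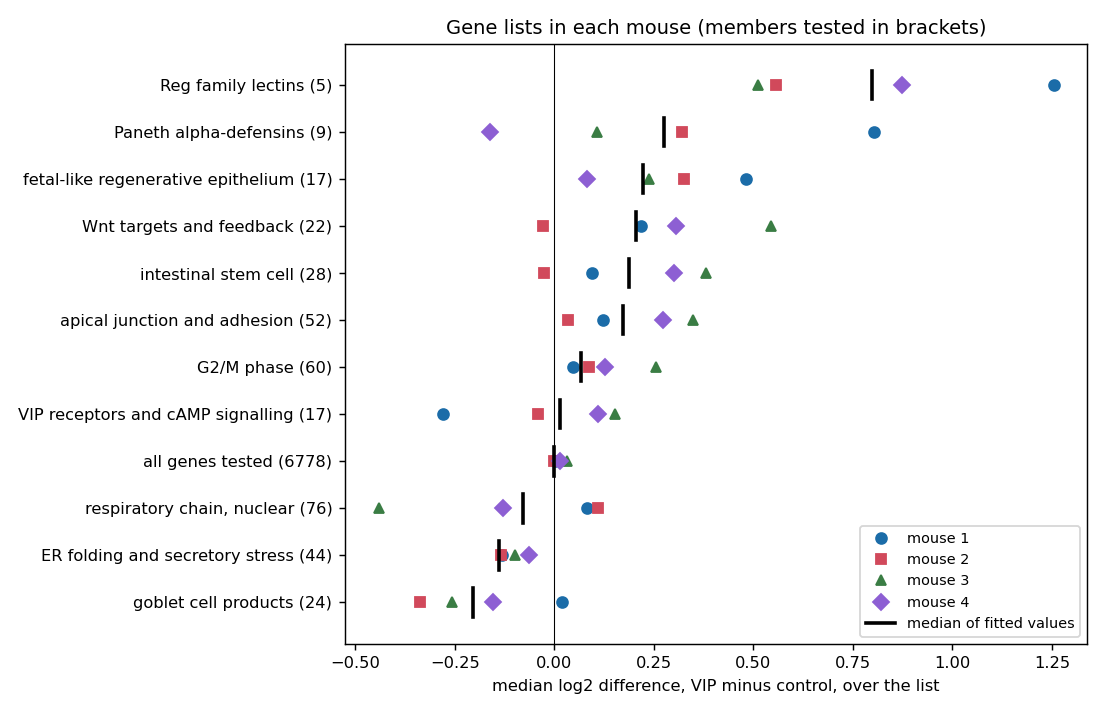
Median over the tested members of 11 gene lists, and of all tested genes, for the change in log2 CPM from the control to the VIP-treated sample of each mouse (coloured symbols), with the median of the fitted log2 fold changes as a black bar. Reg lectins lie above 0 and folding genes below 0 in each of 4 mice, whereas the respiratory chain lies at -0.44 in mouse 3 and above 0 in mice 1 and 2.

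The 48 h cohort of Lgr5-EGFP+ cells, unirradiated and from other mice, gives values for the same genes in samples not used to name them. There VIP changed 184 of 9147 genes, 1.14% higher and 0.875% lower. These samples were sequenced more deeply, with 1331494 to 1798669 UMIs beside 575242 to 1104126 at 72 h. Plgrkt fell again, from 202 to 230 CPM in controls to 117 to 126 with VIP (log2 fold change -0.85, SE 0.08, adjusted p = 1.08e-06), and the effects differed by 0.06 (SE 0.16). Of the genes below the threshold at 72 h, Pglyrp1 (0.35, adjusted p = 0.00292), Cbs (0.98, adjusted p = 1.61e-04), Tff3 (-0.42, adjusted p = 0.00500) and Rn7sk (-0.71, adjusted p = 0.00292) were past it at 48 h in the same direction. Fcgbp had -0.48 (adjusted p = 0.145), with 4 of 4 mice lower. Of the 104 genes raised at 48 h, 99 were tested at 72 h and 73 (73.7%) were above 0, with a median of 0.10, and of the 80 lowered genes 66 were tested and 52 (78.8%) were below 0, with a median of -0.22. Olfm4 (0.56) and Cldn2 (0.74) were past the threshold at 48 h. Of the 10 leading genes on the higher side at 72 h, 9 were tested at 48 h and 5 of these were above 0, and of the 10 on the lower side 9 were below 0.

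The effect of VIP differed between the cohorts for 8 of 9671 genes in an interaction test, 5 more positive (0.0517%) and 3 more negative (0.0310%) at 72 h. S100a6 had a log2 fold change of 0.27 at 48 h (adjusted p = 0.155), and the difference was 1.42 (SE 0.19, adjusted p = 1.64e-04). Untreated cells of the 48 h cohort held 178 to 260 CPM, beside 70.1 to 103.8 CPM here. Defa3 and Defa38 had -0.44 and -0.61 at 48 h, and the differences were 1.68 (SE 0.21, adjusted p = 4.32e-05) and 2.30 (SE 0.37, adjusted p = 0.00169). Defa29 and the retinol-metabolizing alcohol dehydrogenase Adh1 also differed upward, by 3.68 and 1.27. The lactate transporter Slc16a3, the mitophagy receptor Bnip3 and the glycolytic enzyme Pfkl differed by -1.89, -1.68 and -0.99, rising at 48 h (1.64, 1.07 and 0.86) with values of -0.21, -0.58 and -0.12 at 72 h. In the 48 h cohort all 10 tested alpha-defensins were below 0, 3 of them past the threshold. All 3 tested Reg lectins were below 0 there as well (median -0.36), and Reg3b fell (-1.08, adjusted p = 0.0378). Goblet cell products were evenly split at 48 h, 14 above and 13 below 0 (median 0.01), with 2 past the threshold higher and 4 lower. Time with VIP, time after plating at which VIP began, mice, sequencing depth and deposited table differ together between these cohorts and cannot be told apart.

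In whole organoids, treated for the same 72 h but not sorted, 614 of 12727 genes were past the threshold, 3.72% higher and 1.10% lower. With their libraries summed these cultures held 3722716 to 6330404 UMIs, beside 575242 to 1104126 in the sorted samples at 72 h. The part of depth in the numbers of genes that passed in these experiments was not tested. Without the second of the 2 libraries of VIP-treated organoid mouse 3, a choice made after seeing the data, 1261 genes passed. S100a6 rose there as well, from 131 to 223 CPM in controls to 714 to 1240 with VIP (log2 fold change 2.62, SE 0.11, adjusted p = 2.12e-08), and so did Reg1 (1.53, SE 0.16, adjusted p = 5.08e-05), while Plgrkt fell (-0.48, SE 0.10, adjusted p = 0.00920). Without the library these values were 2.83, 1.67 and -0.69. Reg4, Cck, S100a11 and Pglyrp1 were past the threshold in organoids (0.54, 0.53, 1.54 and 0.50), and all 10 leading genes on the higher side were above 0 there. Of the 10 on the lower side 6 were below 0 in organoids, and Fcgbp and Tff3 were past the threshold in the opposite direction. Of 5 Reg lectins tested 3 were above 0, and Reg3a (-1.16, adjusted p = 6.77e-06) and Reg3b (-0.53, adjusted p = 0.00595) fell. Defa3 had 0.49 (adjusted p = 0.102, and 0.00104 without that library) and Defa38 -0.06.

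Several goblet cell products rose in the unsorted culture. Fcgbp was at 93.0 to 291 CPM in untreated organoids and 214 to 416 with VIP, 0.70 higher on the log2 scale (SE 0.13, adjusted p = 0.00492), and Tff3 had 0.52 (adjusted p = 0.00249). Of 33 tested goblet cell products 31 were above 0 in organoids and 17 passed, all higher. The interaction of VIP with the compartment was past the threshold for 15 of 10194 genes, 2 more positive (0.0196%) and 13 more negative (0.128%) in sorted cells. Of the 13, Fcgbp, Zg16, Guca2a and Tff3 are goblet cell products, with differences of -1.67 (SE 0.22, adjusted p = 6.04e-04), -2.22, -1.01 and -1.12. Lgals3, Krt7, Sprr2a3 and Emp1, genes of regenerating or stressed epithelium, differed by -2.29, -1.15, -1.82 and -1.67, and Rflnb, Anxa13, Mboat1, S100a16 and Ankrd37 by -0.99 to -1.63. Defa29 and Reg3a differed by 2.81 and 1.97. For Muc2 the difference of -1.13 (SE 0.34, adjusted p = 0.398) did not pass. Sorted cells and organoids also differed in mice, strain, sequencing depth and deposited table, which cannot be told apart from the sort.

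**Figure D5:**
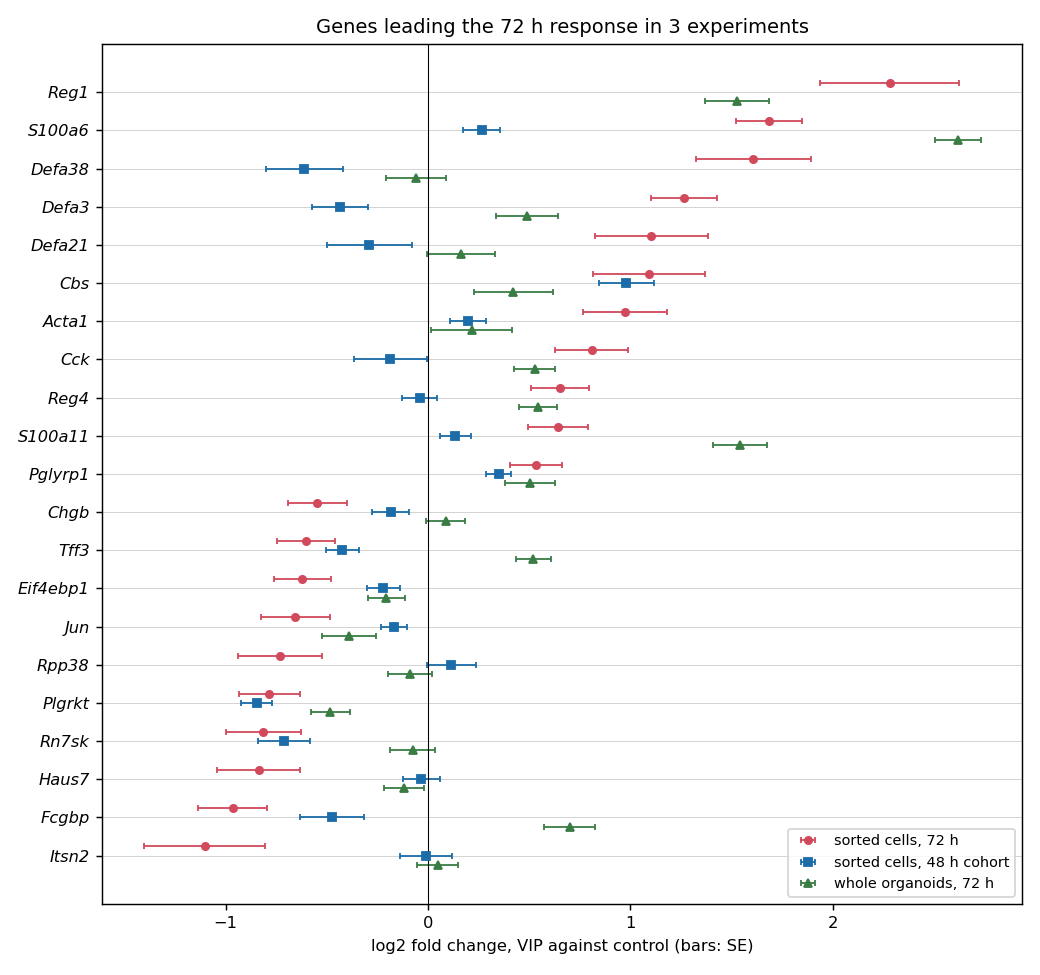
Log2 fold change with VIP and its SE for the genes past the threshold and the leading genes in each direction at 72 h (red), beside the 48 h cohort of sorted cells (blue) and whole organoids (green). Plgrkt lies below 0 in each experiment, S100a6 rises in the 2 experiments at 72 h, and Fcgbp and Tff3 lie below 0 in sorted cells and above 0 in organoids.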

How the data were processed

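Lgr5-EGFP+ cells were sorted from organoids of 4 mice with and without VIP. The authors made 3′ libraries from poly(A) RNA with sample barcodes and UMIs and processed them with the Drop-seq pipeline 1.0 on GRCm38 with GENCODE M25. Unnormalized UMI counts were deposited, for 20500 genes in the 8 columns at 72 h. Technical replicate libraries of organoid cultures were summed. Here edgeR 4.0.16 under R 4.3.3 was applied to these counts (filterByExpr by group, TMM, quasi-likelihood test with the mouse as a block, Benjamini-Hochberg adjustment, threshold 0.05), with DESeq2 1.42.0 as an alternative. The SE of a fold change was taken from the F statistic. CPM values are scaled by TMM factors, and within-mouse differences of log2 CPM use a prior count of 2.

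Samples were paired by the mouse in their labels. Deviations from the group mean correlated at 0.03 to 0.21 across genes for samples of the same mouse and at -0.14 to 0.15 for different mice. Each mouse is 1 organoid line with 1 sample per treatment. With the mouse as a block, p-values measure how the VIP difference within a line varies between lines, and not the spread of their levels. The named genes are those past the threshold, the 10 of smallest p in each direction among genes moving alike in 4 of 4 mice, the leading members of each list, marker genes and genes the study names. Genes and lists were chosen with earlier results of these data known. Positions are from GENCODE M21, which holds 97.2% of the symbols (Defa38 under an older symbol), and promoters from RefSeq. UMIs of near-identical genes cannot be assigned with certainty, and a floor of 3 UMIs limits the low genes by counting error. Alternatives are described in the closing section.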

Additional observations from a re-analysis of the deposited data

Results flagged for a closer look

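Of 70 groups of 4 values examined, 5 had a sample far from the others, where chance gives about 1 in 20. They were the totals of control mouse 2 (864670 UMIs) and VIP-treated mouse 1 (1104126 UMIs), Reg1 in VIP-treated mouse 4 (176.1 CPM), Rn7sk in VIP-treated mouse 2 (1178 CPM) and the summed Reg lectins of VIP-treated mouse 4 (0.0656% of the UMIs).

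Differences of the VIP effect past the threshold between the 72 h and the 48 h cohort, in log2, were 1.68 for Defa3, 1.42 for S100a6, 2.30 for Defa38, 3.68 for Defa29, 1.27 for Adh1, -1.89 for Slc16a3, -1.68 for Bnip3 and -0.99 for Pfkl. Between sorted cells at 72 h and whole organoids they were -2.29 for Lgals3, -1.67 for Fcgbp, -2.22 for Zg16, -1.15 for Krt7, -1.82 for Sprr2a3, -1.01 for Guca2a, -1.12 for Tff3, -1.37 for Rflnb, -0.99 for Anxa13, -1.55 for Mboat1, 2.81 for Defa29, 1.97 for Reg3a, -1.03 for S100a16, -1.63 for Ankrd37 and -1.67 for Emp1.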

How the results depend on the processing

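Without the mouse as a block, so without the pairing of samples, 1 gene passed at 72 h, 59 in the 48 h cohort, 99 in organoids, 2 in the difference between cohorts and 0 (edgeR) in the difference from organoids, against 6, 184, 614, 8 and 15 with it. Behind the count of 0, 413 of 10194 tested genes had an unadjusted p under 0.05 in edgeR. This share is below the 0.05 that chance gives without any effect. DESeq2, with the block, called 20 genes in the difference from organoids. DESeq2's Wald test gave 2 genes at 72 h, 43 in the 48 h cohort, 300 in organoids and 5 in the difference between cohorts. At 72 h, 14 genes passed with library size as the only scaling, 17 with all genes that had a count, 11 with at least 10 counts in every sample and 11 after thinning to the smallest library. Leaving out 1 mouse gave 3 genes (without mouse 1) to 17 (without mouse 3) at 72 h, 49 (without mouse 4) to 234 (without mouse 1) at 48 h, 363 (without mouse 2) to 1668 (without mouse 3) in organoids, 4 (without mouse 1 or 4 of the 72 h samples) to 13 (without mouse 3) in the difference between cohorts and 3 (without organoid mouse 2) to 25 (without organoid mouse 3) in the difference from organoids. Without the second library of VIP-treated organoid mouse 3, chosen after seeing the data, 1261 genes passed. The cause was not tested. The log2 fold change of Lyz1 ran from -0.27 without mouse 1 to 5.40e-04 without mouse 4. Of 282 alternative fold changes of 24 genes, 231 kept direction and side of the threshold, 35 came to pass it, 15 ceased to and 1 turned.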
